A study of Arabidopsis thaliana with 6 samples.

Results

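The 10 genes described here are salicylate-linked defence genes of Arabidopsis thaliana, picked from a table of 22746 measured probe sets because of how they stood in actin2-5 seedlings next to wild type. The set holds the transcription factor gene CBP60G, the ankyrin repeat genes ACD6 and AT1G10340, and the ubiquitin ligase gene RING1. It also holds PCC1, the lectin gene AT5G03350, the protease gene AED1, and the pathogenesis-related genes PR1, PR2 and PR5. Their change between the genotypes decided their choice, so it is given as a description with no test. Each gene was read by 1 probe set. No filter on low values was set and all 10 were measured. The gene names of 7 probe sets came with the member list, since the platform annotation used here does not list them: 266385_at for PR1, 251625_at for PR2, 259925_at for PR5, 256766_at for PCC1, 245265_at for ACD6, 246821_at for CBP60G and 250445_at for AED1. The other 3, 250942_at (AT5G03350), 264434_at (AT1G10340) and 250435_at (RING1), are named by that annotation.

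Total RNA of whole seedlings was hybridised to Affymetrix ATH1 arrays, 1 array per sample. The actin2-5 mutant, also labelled wavy and named for the actin gene ACT2, and the Columbia wild type each had 3 biological replicates. All seedlings were 8 days old and grew on Murashige and Skoog medium of reduced strength, with no pathogen or salicylate treatment in the labels. The ecotype of the mutant, the nature of its allele and the number of seedlings per sample are not given in the labels.

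Salicylate is a plant hormone of immunity against pathogens that feed on living tissue. Most of it is made by a route that begins with the enzyme ICS1 in the chloroplast. The ICS1 gene is activated by the calmodulin-binding factor CBP60G and its relative SARD1. The EDS1 protein, with its partners PAD4 and SAG101, relays signals of intracellular immune receptors into this pathway. Raised salicylate acts through NPR1 and TGA factors to switch on secreted proteins, of which PR1, PR2 and PR5 are the classical markers.

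Values are log2 expression as deposited, so a difference of 1 stands for a doubling of signal. Array medians lay between 6.43 and 6.465 and lower quartiles between 4.50 and 4.58. Over all 22746 probe sets, 750 (3.3%) passed a limma adjusted p under 0.05, with 497 (2.18%) higher and 253 (1.11%) lower in actin2-5. The 25S ribosomal RNA control probe set read 10.63, 7.75 and 9.82 on actin2-5 arrays 1, 2 and 3, against 8.21, 8.13 and 8.20 in wild type. Results are given below also without arrays 1 and 3, which leaves 1 mutant array, assumed in the fit to vary like wild type.

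Of the 10 genes, 8 were higher in every actin2-5 array than in any wild-type array, 1 was lower in every one, and 1 overlapped. Over all probe sets 8.35% were higher and 10.8% lower without overlap. As this contrast chose the members, nothing is read from the comparison. The 8 higher genes ranged from 2.04-fold to 14.8-fold, and the classical markers were split between them and the other two.

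**Figure D1:**
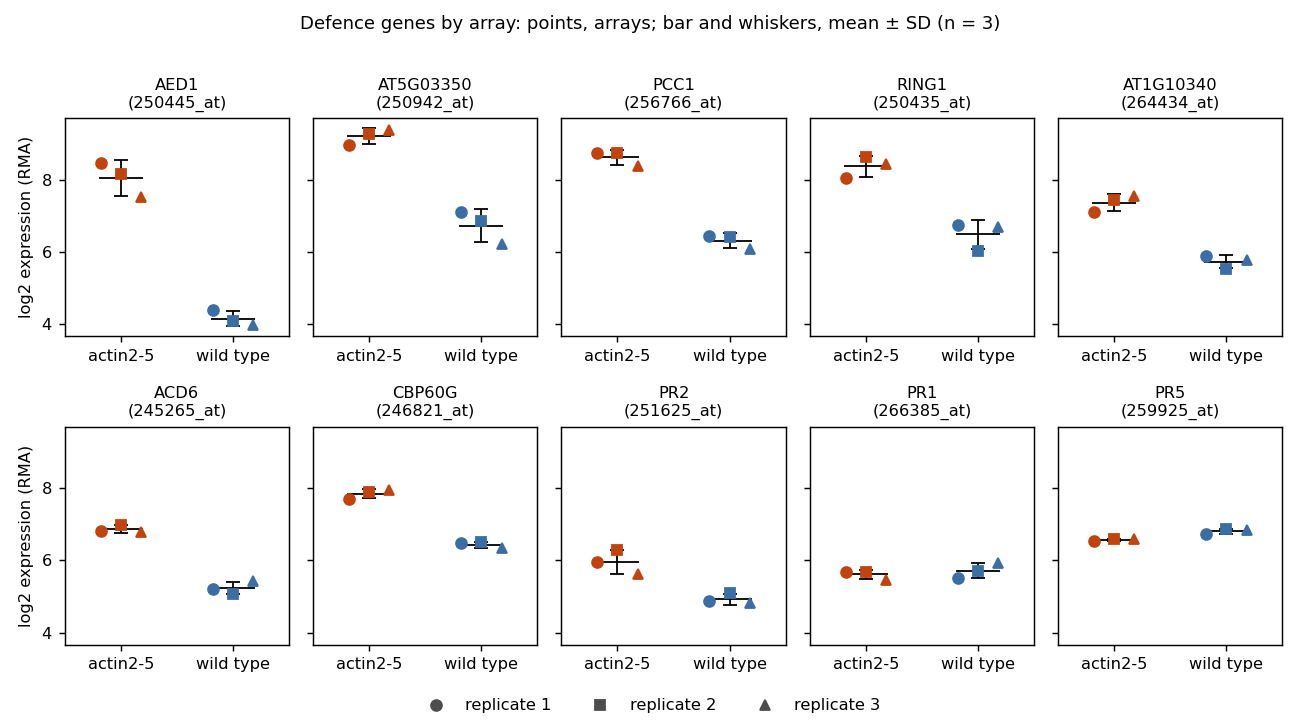
Log2 expression of each defence gene (vertical axis, RMA values) on 3 actin2-5 arrays (left, orange) and 3 wild-type arrays (right, blue); symbols mark the replicate, the bar and whiskers the mean ± SD. The groups stand apart in 8 panels with actin2-5 above, PR5 is slightly lower in actin2-5, and PR1 overlaps.

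CBP60G, the regulator placed upstream of salicylate synthesis, read 7.71, 7.88 and 7.96 in actin2-5, against 6.47, 6.50 and 6.34 in wild type. The groups stood 1.21 apart at their nearest arrays, and the arrays of each genotype lay close together. Means with their SD were 7.85 ± 0.13 for actin2-5 and 6.44 ± 0.09 for wild type (n = 3 each). They differed by 1.41 ± 0.09 on the log2 scale (SE from the limma fit), or 2.66-fold.

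ACD6 encodes a membrane protein with ankyrin repeats, a gain-of-function form of which raises salicylate and stunts growth. It read 6.82, 6.99 and 6.78 in actin2-5, against 5.20, 5.08 and 5.43 in wild type, with no overlap. The difference was 1.63 ± 0.11, or 3.09-fold. AT1G10340, whose product is likewise an ankyrin repeat protein, read 7.11, 7.44 and 7.56 in actin2-5, against 5.89, 5.54 and 5.79 in wild type. All actin2-5 arrays were again above all wild-type arrays, and its difference of 1.63 ± 0.13 equalled that of ACD6 within the SE.

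RING1 encodes a RING-type ubiquitin ligase linked to programmed cell death. It read 8.06, 8.63 and 8.44 in actin2-5, against 6.76, 6.03 and 6.70 in wild type. The low wild-type value belongs to replicate 2, and RING1 had the second widest wild-type spread of the set (SD 0.41). The difference was 1.88 ± 0.20, or 3.68-fold.

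Among the genes that act as outputs of defence, AED1 stood furthest apart. Its product is an aspartyl protease of the apoplast, the space outside the plasma membrane, named for its dependence on EDS1. AED1 read 8.48, 8.15 and 7.52 in actin2-5, against 4.40, 4.09 and 3.99 in wild type. The wild-type arrays lay under the lower quartile of all probe sets, and every actin2-5 array was above the array median. The difference of 3.89 ± 0.21, or 14.8-fold, was the highest of all 22746 probe sets. Since RMA draws weak signals together and wild type was dim, this fold may be understated. The choice of the gene by this same change can push it the other way, and neither was tested.

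AT5G03350, which encodes a protein of the legume lectin family, read 8.97, 9.27 and 9.39 in actin2-5, against 7.11, 6.85 and 6.23 in wild type. The groups did not overlap, and its wild-type spread was the widest of the set (SD 0.45), with replicate 3 low. The difference was 2.48 ± 0.20, or 5.58-fold. PCC1, named for its response to pathogens and the circadian clock, read 8.75, 8.74 and 8.38 in actin2-5, against 6.45, 6.42 and 6.08 in wild type. In both genotypes replicate 3 was the lowest. The difference was 2.31 ± 0.13, or 4.95-fold.

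The 3 pathogenesis-related genes did not move together. PR2, a secreted glucanase that attacks fungal walls, read 5.96, 6.28 and 5.62 in actin2-5, against 4.87, 5.10 and 4.81 in wild type. The nearest arrays were 0.52 apart, the smallest gap among the 8 higher genes, and the difference was 1.03 ± 0.15, or 2.04-fold. PR1, the marker most often used for salicylate responses, read 5.69, 5.68 and 5.47 in actin2-5, against 5.52, 5.71 and 5.93 in wild type. These values overlap, and their means with SD were 5.61 ± 0.12 for actin2-5 and 5.72 ± 0.21 for wild type (n = 3 each). Its difference was -0.11 ± 0.12, within 1 SE of 0, and it lay between -0.21 and -0.0017 when any 1 array was left out.

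PR5, a secreted thaumatin-like protein, read 6.53, 6.59 and 6.59 in actin2-5, against 6.73, 6.86 and 6.84 in wild type. Every actin2-5 array was below every wild-type array, but the difference was small, at -0.24 ± 0.08. PR1 and PR5 were not among the dimmest probe sets, with mean levels at the 40.7 and 53.3 percentiles. PR2 was dimmer, at the 38.0 percentile. Of the classical salicylate markers, PR2 alone was thus higher in actin2-5.

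Ordered by their change, the genes ran AED1, AT5G03350, PCC1, RING1, AT1G10340, ACD6, CBP60G, PR2, PR1, PR5. This order follows the values that chose the genes and is a description. AED1 was 1.41 ± 0.29 above AT5G03350 and PR2 was 1.13 ± 0.19 above PR1 (SE of each step, taken as if the genes were measured independently). The steps between the other neighbours were 0.43 or less, with SEs of 0.14 to 0.24, and AT1G10340 and ACD6 were 0.0033 apart.

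**Figure D2:**
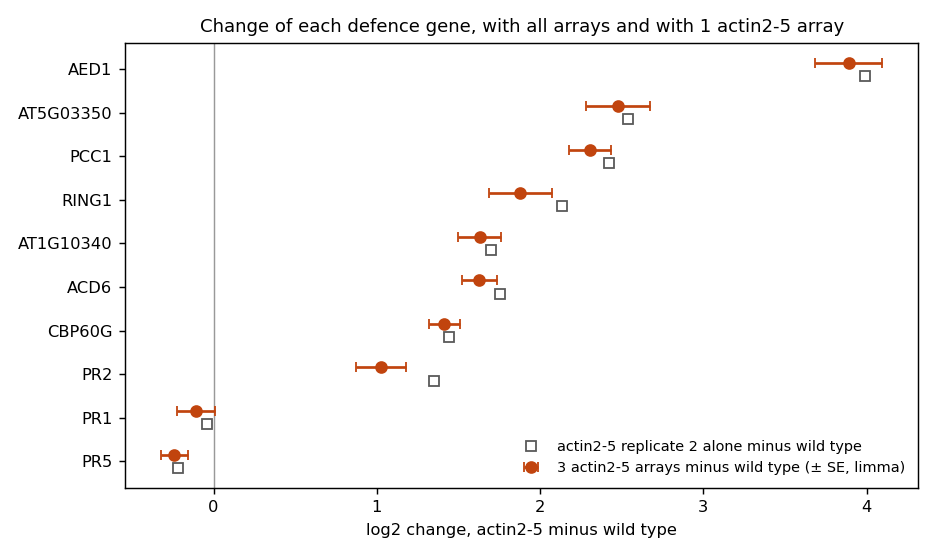
Log2 change of each defence gene, actin2-5 minus wild type (horizontal axis), for all 3 actin2-5 arrays with SE (filled circles) and for actin2-5 replicate 2 alone (open squares). The 8 higher genes keep their side of 0 on that 1 array, and the median over the 10 genes is 1.63 with all arrays and 1.73 with replicate 2 alone.

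On actin2-5 replicate 2 alone, where 25S was lowest, the change against wild type was 3.99 for AED1, 2.13 for RING1, 1.75 for ACD6 and 1.35 for PR2. With the 25S value as a covariate in the fit, AED1 was at 3.85 ± 0.27, CBP60G at 1.46 ± 0.12, PR1 at -0.09 ± 0.15 and PR5 at -0.22 ± 0.11. Leaving out any 1 array kept AED1 between 3.68 and 4.16 and PR2 between 0.86 and 1.19.

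Spread within a genotype was not used to choose the genes. The pooled SD within genotypes had a median of 0.21 over the 10 genes, against 0.12 over all probe sets, and 8 of the 10 were above that overall median. AED1, AT5G03350 and RING1 were at the 99.6, 99.4 and 99.4 percentiles of pooled SD. CBP60G and PR5 were the 2 below it, with PR5 at the 8.27 percentile. The defence genes thus included some of the most variable probe sets between biological replicates as well as a very even one.

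**Figure D3:**
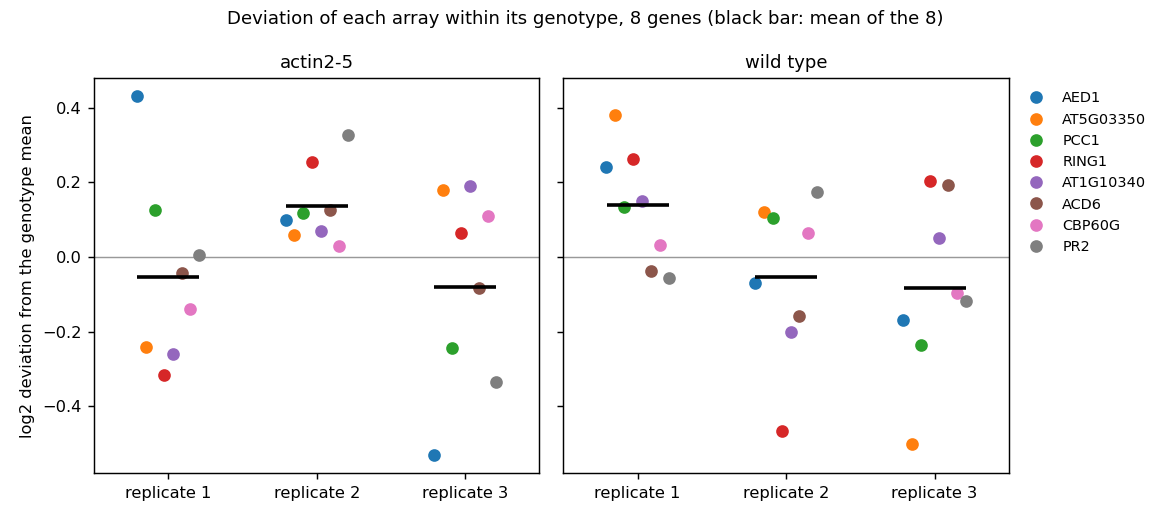
Deviation of each array from its genotype mean (vertical axis, log2) for the 8 higher genes, actin2-5 on the left and wild type on the right; the black bar is the mean of the 8. All 8 genes lie above 0 on actin2-5 replicate 2, while on the other arrays they fall on both sides.

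The 8 higher genes did not deviate as 1 block. The mean Pearson correlation of deviations over their 28 pairs was 0.08, against 0.02 over all probe sets. Pairs ran from -0.60 to 0.87, and 15 of them were positive. Within actin2-5 alone the mean was 0.16, against 0.0048 over all probe sets, and within wild type it was 0.08, against 0.02. Each correlation spans 6 arrays, or 3 within a genotype, that share their genotype means, so these are descriptions. PCC1 deviated with AED1 (0.83) and with PR2 (0.74), and all 3 were lowest in actin2-5 on replicate 3. RING1 deviated with AT1G10340 (0.87), and AT5G03350 with CBP60G (0.81), and these 4 were lowest in actin2-5 on replicate 1. On actin2-5 replicate 2 all 8 lay above their genotype mean, by 0.14 on average, and this was also the array with the lowest 25S signal. The part of 25S signal in that was not tested.

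For the rest of the pathway, 137 genes were listed by locus and 14 of them have a probe set named here. limma called 6 of the 14 higher and 0 lower in actin2-5, against 2.18% and 1.11% of all probe sets. The lists were chosen with earlier results of these data known, so this comparison is a description. At an unadjusted p under 0.05 there were 10 of the 14, 1 of them lower. The median change was 0.43, against -0.03 over all probe sets, and 13 of the 14 had a positive change. The 6 called genes stayed higher whichever array was left out, but fewer passed in some cases. Without actin2-5 replicate 2 or without replicate 3 there were 2 calls, AZI3 and SARD4, while calls over the whole table fell to 290 and 307. With the 25S covariate there were 3, SAG101, AZI3 and SARD4, and with actin2-5 replicates 1 and 3 left out, which leaves 1 mutant array, there were 0. The changes on that 1 array were 1.37 for AZI3, 0.69 for SARD4, 1.18 for WRKY53, 0.81 for WRKY22, 0.73 for SAG101 and 0.54 for UGT76B1.

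Among genes of systemic acquired resistance, the immunity that spreads from an infected leaf, limma called 2 of 4 measured higher. SARD4 (AT5G52810), which takes part in making the immune signal pipecolate, read 7.47, 7.61 and 7.77 in actin2-5, against 6.77, 6.98 and 7.00 in wild type. It rose by 0.70 ± 0.10 (limma adjusted p = 0.00526). AZI3 (AT4G12490), a relative of the azelaic acid response gene AZI1, read 10.78, 11.30 and 11.17 in actin2-5, against 9.55, 10.24 and 10.01 in wild type, a rise of 1.15 ± 0.18 (limma adjusted p = 0.00615). The groups did not overlap for either gene. AED3 (AT1G09750), an apoplastic EDS1-dependent protein like AED1, was at 0.13 ± 0.10 (limma adjusted p = 0.622), and the DIR1-like gene AT5G48490 at 0.05 ± 0.10.

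Of the defence WRKY factors, DNA-binding proteins that turn immune genes on or off, limma called 2 of 3 measured higher. WRKY53 had a mean of 7.49 ± 0.33 in actin2-5 seedlings and 6.18 ± 0.50 in wild-type ones, and WRKY22 had 6.99 ± 0.24 in actin2-5 and 6.11 ± 0.29 in wild type (SD over 3 arrays). Their limma adjusted p-values were 0.012 and 0.0127. Without actin2-5 replicate 2 the change of WRKY53 was 1.38 ± 0.27 (adjusted p = 0.052) and that of WRKY22 0.91 ± 0.19 (adjusted p = 0.0593), against 1.31 ± 0.23 and 0.88 ± 0.16 over all arrays. Without replicate 3 they were 1.125 ± 0.236 and 0.745 ± 0.159 (adjusted p = 0.0612 and 0.0658). With the 25S covariate they were 1.298 ± 0.301 and 0.89 ± 0.20 (adjusted p = 0.0978 for each), so the changes hardly moved while the SEs grew. WRKY6 was at 0.21 ± 0.08 (limma adjusted p = 0.227), not called though higher in every actin2-5 array than in any wild-type array.

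Upstream, SAG101, the partner of EDS1, rose by 0.64 ± 0.11 (limma adjusted p = 0.00843), with means of 5.18 ± 0.13 in actin2-5 and 4.54 ± 0.16 in wild type. Its change was 0.60 ± 0.12 without actin2-5 replicate 2 (adjusted p = 0.0638) and 0.61 ± 0.13 without replicate 3 (adjusted p = 0.0576), close to that over all arrays but no longer called. EDS1B (AT3G48080), 1 of 2 neighbouring EDS1 copies, was at 0.09 ± 0.13 (limma adjusted p = 0.794), dim at a wild-type mean of 4.42.

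In salicylate turnover, UGT76B1, a glucosyltransferase that inactivates salicylate and related immune signals, rose by 0.46 ± 0.09 (limma adjusted p = 0.0159). It averaged 9.53 ± 0.11 in actin2-5 and 9.07 ± 0.03 in wild type. Its change was 0.42 without actin2-5 replicate 2, 0.44 without actin2-5 replicate 3 and 0.445 without wild-type replicate 3, where it was not called (adjusted p = 0.109, 0.101 and 0.0515). With the 25S covariate the change was 0.53 ± 0.11, larger than over all arrays but with a larger SE (adjusted p = 0.0563). UGT74F1, another salicylate glucosyltransferase, was at -0.23 ± 0.09 (limma adjusted p = 0.275). The methyltransferase gene BSMT1 was dim, with a wild-type mean of 3.67, and at 0.02 ± 0.08, a sign that turned in 3 alternatives.

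Of salicylate receptors and their partners, 0 of 2 measured genes were called by limma, though both had an unadjusted p under 0.05 and higher values in every actin2-5 array. NPR2 (AT4G26120), a relative of NPR1, was at 0.49 ± 0.12 (adjusted p = 0.0539). It passed in 5 alternatives, such as repeated quantile normalization (adjusted p = 0.0305). The glutaredoxin gene GRX480, which links NPR1 and TGA factors to jasmonate responses, was at 0.40 ± 0.11 (adjusted p = 0.0939). It passed without wild-type replicate 3 (adjusted p = 0.0433) and with the replicate block (adjusted p = 0.0493). NPR1 itself, the 9 listed salicylate synthesis genes such as ICS1, EDS5 and PBS3, and the 32 listed defence outputs were not analysed here.

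**Figure D4:**
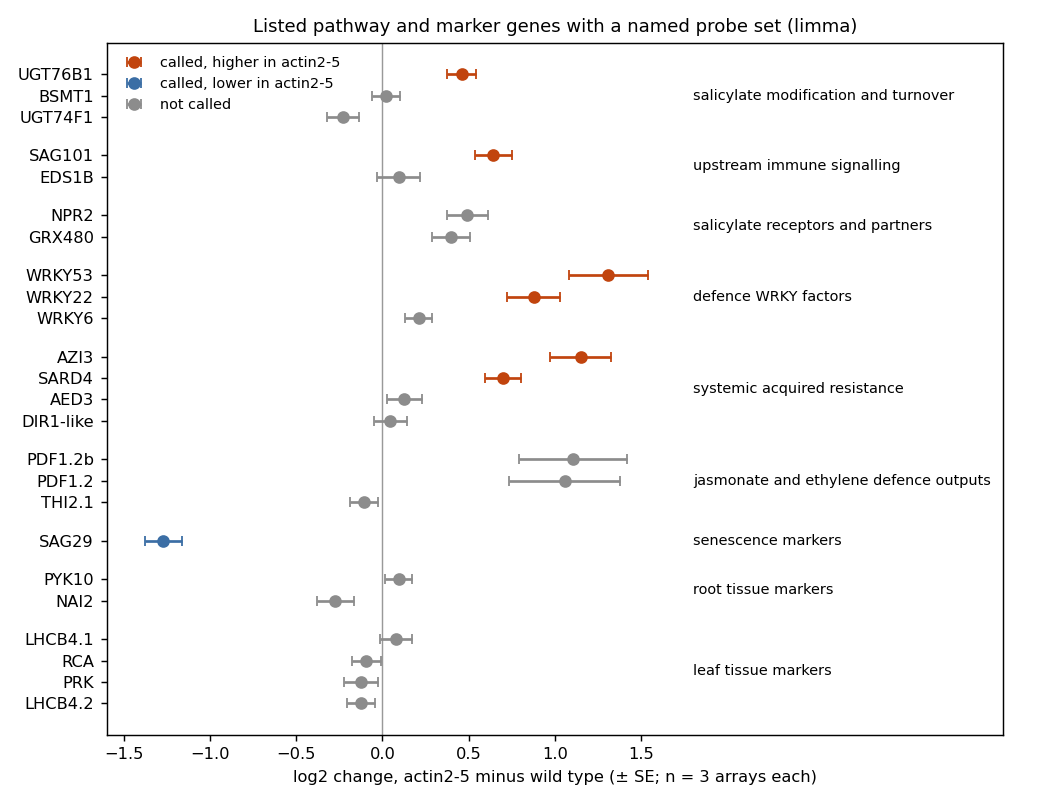
Log2 change, actin2-5 minus wild type, with SE (horizontal axis) of listed genes that have a named probe set, grouped by role; orange marks genes called higher, blue genes called lower and grey genes not called by limma. The 6 orange genes are UGT76B1, SAG101, WRKY53, WRKY22, AZI3 and SARD4, and the 1 blue gene is SAG29.

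Of 3 measured outputs of jasmonate and ethylene defence, limma called 0, with 2 at an unadjusted p under 0.05. The defensin genes PDF1.2 and PDF1.2b were high mainly on 1 actin2-5 array. Related genes can cross-hybridise, so these 2 may not be independent readings, which was not tested. PDF1.2b read 5.72, 7.31 and 6.08 in actin2-5, against 5.28, 5.18 and 5.33 in wild type, so the highest value lay on the array with the lowest 25S signal. The change was 1.11 ± 0.31 for PDF1.2b and 1.06 ± 0.32 for PDF1.2 (limma adjusted p = 0.0984 and 0.126). Leaving out actin2-5 replicate 1 made both calls (limma adjusted p = 0.0339 and 0.0412), as did the 25S covariate (0.000279 and 0.00058) and the replicate block (0.0364 and 0.0123). With the covariate the changes were 1.79 and 1.75. The 25S value hardly varied in wild type (SD 0.04), so the covariate fit leans on the actin2-5 arrays. It is thus not separate from the high values on replicate 2. With actin2-5 replicates 1 and 3 left out, PDF1.2b and PDF1.2 were at 2.05 and 1.99. Without replicate 2 they were at 0.64 ± 0.13 and 0.59 ± 0.16 (limma adjusted p = 0.0538 and 0.158). The thionin gene THI2.1 was at -0.11 ± 0.08.

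Senescence and tissue markers were read beside the defence genes. SAG29, the 1 measured senescence marker of 8 listed, fell by 1.27 (SE 0.11, limma adjusted p = 0.000168), opposite in sign to the 8 higher defence genes. It was at -1.16 with actin2-5 replicates 1 and 3 left out. This 1 gene does not tell how senescence genes moved as a group. The leaf markers RCA, PRK, LHCB4.1 and LHCB4.2 lay between -0.12 and 0.08 and the root markers PYK10 and NAI2 at 0.09 ± 0.08 and -0.27 ± 0.11. Of these 6, limma called 0, and NAI2 alone had an unadjusted p under 0.05. All 6 were bright, with wild-type means of 10.25 or more. In whole seedlings, more RNA per cell and more cells of an expressing type cannot be told apart. The reference genes AT2G28390, AT4G34270 and PEX4 were at 0.01, 0.02 and -0.02, signs that turned in several alternatives. For the members' protein families, a search by gene synonyms found 1 measured relative, the ankyrin gene ANK1. It was at 0.16 ± 0.17 (limma adjusted p = 0.721, also above 0.05 unadjusted). Relatives whose synonyms do not name the family were missed by that search, so how the families moved is not known from it.

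The patterns most like the mean of the 10 genes over the 6 arrays, among 13510 other single-gene probe sets, belonged to AT4G07820, AT4G03450, AT2G43530, AT1G06620 and AT1G76960. Their Pearson correlations were 0.994, 0.993, 0.993, 0.993 and 0.991. The 6 arrays form 2 genotypes that stand apart, so these coefficients rank likeness of the step between genotypes and little else. AT4G03450 read 5.37, 5.49 and 5.37 in actin2-5, against 4.58, 4.34 and 4.50 in wild type. AT2G43530 read 8.84, 9.22 and 9.07 in actin2-5, against 7.61, 7.47 and 7.57 in wild type. The log2 differences of the 5 genes ran from 0.44 for AT4G07820 to 1.49 for AT2G43530, with the other three at 0.94 for AT4G03450, 0.55 for AT1G06620 and 1.15 for AT1G76960.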

How the data were processed

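The deposited values are log2 expression per probe set. The authors computed them with RMA in the affy package, according to the submitters' processing notes, on 6 arrays; tool versions and the chip definition are not stated there. The table held 22810 rows, of which 64 AFFX control rows were left out of the test. Of 22746 probe sets, 13513 have 1 gene symbol in the platform annotation, 503 several and 8730 none; 13436 matched RefSeq's TAIR10.1 table by gene identifier. limma 3.58.1 (R 4.3.3) was fitted to all 22746 probe sets with genotype as the only term. Its p-values were two-sided and Benjamini-Hochberg adjusted, and a call means an adjusted p under 0.05. The number of arrays limits the precision. On simulated data with the means and spreads of the real table of 22746 probe sets, limma recovered 55.1% of 1.5-fold and 92.9% of 2-fold changes. Of its calls there, 3.76% and 6.02% were false. Noise was drawn separately for each value, with no shift shared by a whole array, so recovery on the real arrays may differ. The members, lists and alternatives were chosen with earlier results of these data known. From each list up to 4 called genes are named, or those with the smallest p, and then the 5 genes most like the member mean. The labels state no pairing, so the main fit has none. Deviations of same-numbered arrays correlated at 0.062, 0.087 and 0.083, which cannot decide whether the numbers paired the samples. Protein families were sought by pattern in gene synonyms, and most gave no measured gene. Figures were drawn with matplotlib 3.10.9. No sequence is shown, since the tables used here hold none.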

Additional observations from a re-analysis of the deposited data

Results flagged for a closer look

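Signal from 25S ribosomal RNA, read by a control probe set outside the comparison, had a mean of 9.40 ± 1.49 in actin2-5 seedlings and 8.18 ± 0.04 in wild-type ones (SD over 3 arrays). It drew attention because its mean in the mutant stood above all wild-type arrays. The signal was high on actin2-5 replicates 1 and 3 and low on replicate 2. With the 25S value as a covariate, 3 of the 14 measured pathway genes were called, against 6 without it. Whether 25S signal itself accounts for that difference was not tested.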

How the results depend on the processing

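The changes of the 10 defence genes moved by less than their spread between replicates in 119 of 120 gene and setting pairs, with 0 changes of sign. Much of that count was fixed in advance, so it is no measure of stability. The replicate block leaves each change as it was, and leaving out 1 of 3 arrays cannot move a change by that spread. PR2 moved to 1.35 with actin2-5 replicates 1 and 3 left out. That alternative was added after the data were seen and leaves 1 mutant array, assumed to vary like wild type. Over all probe sets, calls numbered 283 with the 25S covariate, 103 with replicates 1 and 3 left out, 323 at adjusted p under 0.01 and 401 with a 1.5-fold minimum, the last 2 stricter by construction. Leaving out 1 array gave 290 to 896 calls, 2 to 7 pathway genes and 1 to 3 jasmonate, senescence and tissue marker genes. Pathway calls numbered 3 with the 25S covariate and at adjusted p under 0.01, and 0 with replicates 1 and 3 left out. Marker calls numbered 0 above the median filter, which leaves out SAG29, and 3 with the replicate block, the 25S covariate and replicates 1 and 3 left out. With the replicate block 907 probe sets and 8 pathway genes were called. The labels state no pairing, and the weak correlation of same-number deviations cannot decide whether the samples were paired.

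Signs turned only in genes that were not called. Leaving out 1 array gave -0.02 to 0.06 for BSMT1, -0.0083 to 0.25 for EDS1B, -0.027 to 0.093 for the DIR1-like gene, -0.055 to 0.355 for ANK1, -0.072 to 0.073 for AT2G28390, -0.04 to 0.11 for AT4G34270 and -0.078 to 0.032 for PEX4. BSMT1 was at -0.026 with the 25S covariate and -0.06 with replicates 1 and 3 left out. AT2G28390 was at -0.0033 with median centring, -0.042 with array weights, -0.10 with the covariate and -0.12 with replicates 1 and 3 left out. Except where the construction gives them, causes were not tested. The number of arrays limits the calls, and a missing call is no sign that a gene did not change. BSMT1, EDS1B and NPR2 were dim, as was SAG101, which was called.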
